A study of Mus musculus with 6 samples.

Results

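The genes that encode the proteins of the cytosolic ribosome were examined for hnRNP UL1 peaks in a macrophage line of the mouse, RAW 264.7. They were taken as the rows of the ChIP-seq peak tables whose gene name begins Rpl or Rps with a number, or is Rplp0 to Rplp2 or Rpsa, without the Rps6k kinases, names ending in l1 and pseudogenes marked -ps. This gave 43 peaks at 22 genes, namely 19 of 8425 peaks at 0 h, 19 of 9046 at 4 h and 5 of 1153 at 10 h. All 22 are cytosolic ribosomal proteins, 13 of the large and 9 of the small subunit. The reference annotation holds 87 protein-coding genes whose names fit the rule, of which 77 are cytosolic ribosomal proteins and 10 are paralogs or other genes caught by the name. The other 65 had no row in any table.

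Untreated cells (0 h) and cells given lipopolysaccharide (LPS) at 100 ng/ml for 4 h or 10 h were compared, with 1 ChIP library and 1 input library per time. Chromatin was cut with an enzymatic kit, precipitated with an antibody against hnRNP UL1 (heterogeneous nuclear ribonucleoprotein U-like 1, a nuclear RNA-binding protein) and sequenced. All libraries come from the same cell line and the labels name no separate cultures. Each row of a table places 1 peak as a point and names a transcript, its gene and the distance to the start of that transcript. No height, q-value or read depth is given, so the depth is unknown and a peak is either listed or not listed. With 1 library per time no difference between times could be tested, and no p-value is given. Intervals are exact 95% Clopper-Pearson intervals for shares and exact conditional intervals for ratios. They cover counting error only, and peaks of 1 gene are not independent. Ribosomal protein genes have many processed pseudogenes, and the sources used here do not say how reads matching more than 1 place were treated.

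The tables are ordered by the Ensembl ID of the gene and end at different IDs, so absence of a peak means something different for different genes. The 0 h table runs to the end of the IDs, the 4 h table to ENSMUSG00000027620 and the 10 h table to ENSMUSG00000022416. Of the 22 genes, 9 have IDs that all tables reach, Rps14 has an ID that 0 h and 4 h reach, and 12 can be read at 0 h alone. Rows without a gene name make up 32.7% of the 0 h table, against 0.321% at 4 h and 0.607% at 10 h, and most of those at 0 h have IDs that the 4 h table does not reach. As a check of the cell type by presence of rows, 5 of 12 macrophage marker genes were named at 0 h, with 21 peaks, and 1 of 8 T and B cell, 0 of 5 neuron and 1 of 4 hepatocyte markers, with 2, 0 and 1 peaks. Of all protein-coding genes 15.6% were named at 0 h. Ctsb alone held 16 of the 21 macrophage marker peaks. Peaks are not expression, so the markers do not test the label further.

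Ribosomal protein genes are short and among the most strongly transcribed genes of any growing cell, since every new ribosome needs nearly all of their products. Their transcripts start within a run of pyrimidines, the 5' terminal oligopyrimidine tract, through which the mTOR pathway controls their translation. Many carry small nucleolar RNAs (snoRNAs), guides for the modification of ribosomal RNA, inside their introns. In macrophages LPS changes both the transcription and the translation of many messenger RNAs.

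In resting cells most peaks of these genes lay at their starts. By the authors' annotation 14 of the 19 peaks at 0 h were within 1 kb of a transcription start, a share of 73.7% (48.8 to 90.9%), against 34.8% (33.6 to 36.1%) of the 5652 peaks naming another gene and 27.4% of all peaks. The median absolute distance from the start was 290 bp, against 3952 bp for the other named genes. An intron held 1 of the 19 peaks, against 34.6% of the peaks of other named genes. Since each peak is assigned to its nearest gene, short genes could differ from long ones by size alone. The share for other genes with a transcript of at most 5 kb was 31.9% (29.3 to 34.6%) against 34.8% of all of them. No test of the difference was made.

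**Figure D1:**
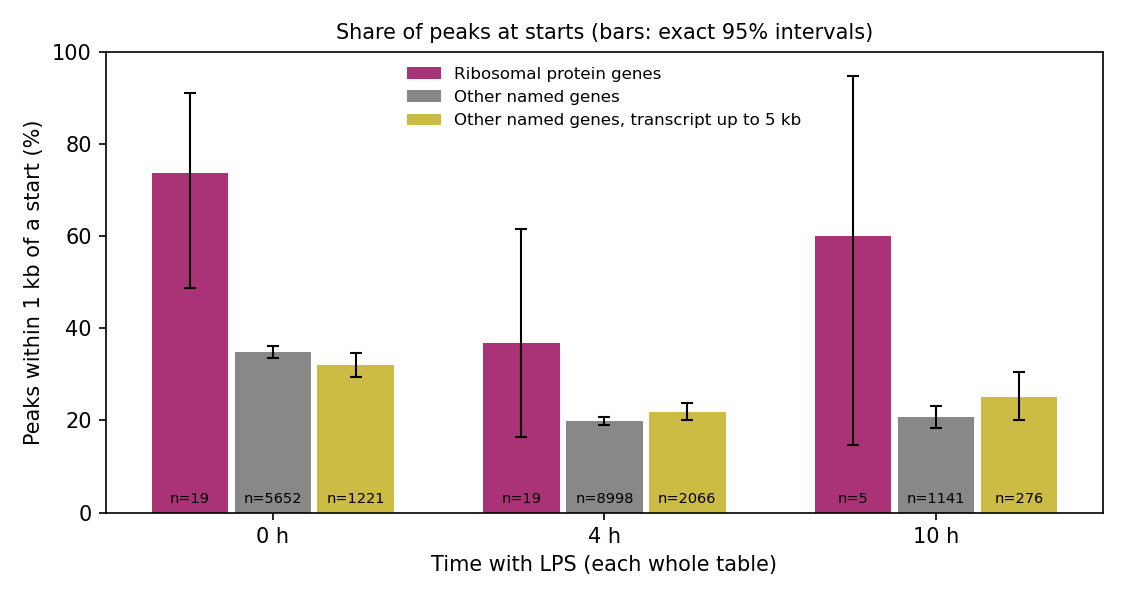
Share of peaks that the authors place within 1 kb of a transcription start (y axis, percent) at 0, 4 and 10 h of LPS, for ribosomal protein genes, other named genes and other named genes with a transcript of at most 5 kb; bars give exact 95% intervals and n the number of peaks in each whole table. The ribosomal protein share is 73.7% at 0 h, 36.8% at 4 h and 60% at 10 h, and the tables reach different gene IDs.

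Peaks at a start were found at 13 of the 87 genes (14.9%, 8.20 to 24.2%), against a background of 7.92% of all 21900 protein-coding genes of the reference. Counting a peak at any distance, 16 of 87 genes were named (18.4%, 10.9 to 28.1%) against 15.6%, so the interval includes the background. Among genes of at most 5 kb, 10 of 72 ribosomal protein genes (13.9%, 6.87 to 24.1%) had a start peak, against 2.71% (2.28 to 3.20%) of all 5047 protein-coding genes of that size. That comparison set includes genes of every tissue. By subunit, start peaks were found at 10 of 46 large-subunit genes (21.7%, 10.9 to 36.4%) and at 3 of 31 small-subunit genes (9.68%, 2.04 to 25.8%), with overlapping intervals.

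Around the peptidyl transferase centre and the stalk of the large subunit, the start peaks of 0 h were as follows. Rpl3 (ENSMUSG00000060036, chromosome 15), whose product reaches towards the peptidyl transferase centre, had its point at 80083302, 30 bp downstream of the start of the named transcript. Rplp1 (ENSMUSG00000007892, chromosome 9), which encodes an acidic protein of the stalk that recruits elongation factors, had 2 points at its start, 172 bp downstream and 315 bp upstream. It was the 1 member with a peak on each side of its start at 0 h. Rpl12 (ENSMUSG00000038900, chromosome 2), whose product forms the base of the stalk, had its point 93 bp downstream.

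Rpl5 (ENSMUSG00000058558, chromosome 5) encodes the protein that carries 5S ribosomal RNA and can bind the p53 regulator Mdm2, and its point lay 123 bp downstream. For Rpl26 (ENSMUSG00000060938, chromosome 11), whose human product also binds the p53 messenger RNA, the distance was 498 bp upstream. The point of Rpl22 (ENSMUSG00000028936, chromosome 4), a protein needed for T cell development in mice, lay 77 bp downstream, and that of Rpl30 (ENSMUSG00000058600, chromosome 15) lay 10 bp upstream.

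The structural large-subunit genes Rpl7a, Rpl13 and Rpl37a had points 23, 118 and 290 bp upstream of the named starts. In the small subunit, Rpsa (ENSMUSG00000032518, chromosome 9), which is also known as the laminin receptor, had its point 90 bp downstream. Rps12 (ENSMUSG00000061983, chromosome 10) had it 309 bp upstream. Rps27a (ENSMUSG00000020460, chromosome 11), which encodes a fusion of ubiquitin with a ribosomal protein, had it 463 bp upstream, inside the neighbouring gene Clhc1. The 14 start points thus lay between 498 bp upstream and 172 bp downstream of the named starts, with 8 upstream and 6 downstream.

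**Figure D2:**
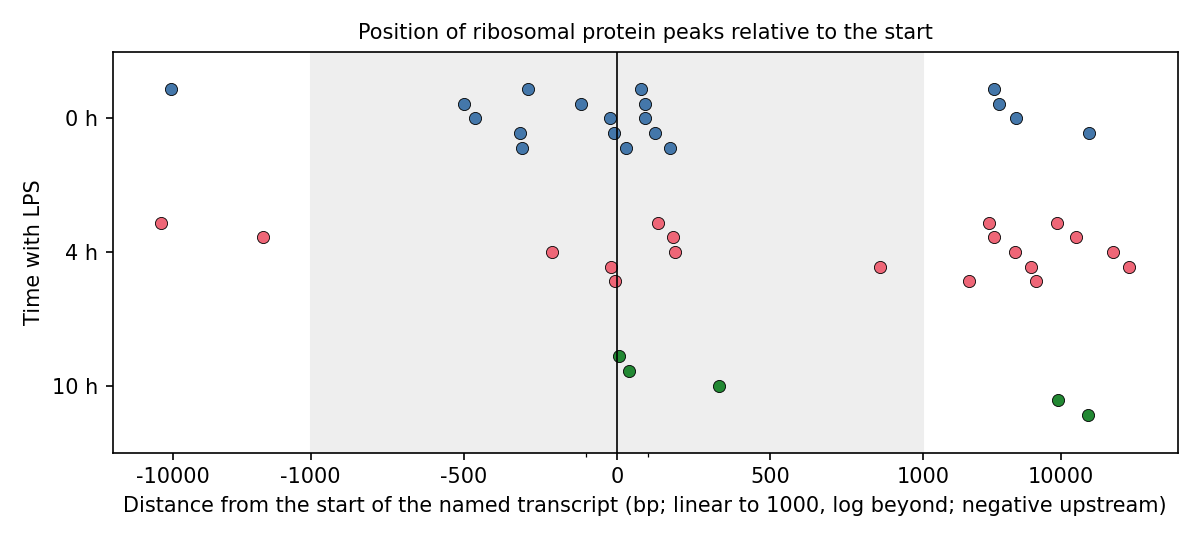
Distance of each ribosomal protein peak from the start of its named transcript (x axis, bp, linear to 1000 and logarithmic beyond, negative upstream) at 0, 4 and 10 h of LPS; each point is 1 peak and the grey band marks 1 kb to each side. At 0 h 14 of 19 peaks lie in the band, at 4 h 7 of 19 and at 10 h 3 of 5.

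These distances depend on the transcript that the authors' annotation picked. Rpl13 (ENSMUSG00000000740, chromosome 8) was measured from a short transcript starting at 123102651, whereas the RefSeq gene starts at 123102350. From the RefSeq start the Rpl13 point of 0 h lies 182 bp downstream, not upstream. The Rpl7a point is likewise 175 bp downstream of its RefSeq start, and the Rpl30 point is 374 bp upstream of it. Measured from the nearest RefSeq 5' end, 8 of the 14 start points lay 104 to 220 bp downstream and the other 6 lay 201 to 532 bp upstream. In that measure 0 of the 14 lay within 100 bp of the start, against 17.5% of the 1928 start peaks of other genes. A count of 0 of 14 is imprecise, and it depends on the measure. From the named starts, the points of Rpl3, Rpl7a, Rpl12, Rpl22, Rpl30 and Rpsa did lie within 100 bp. The sets also differ in that 17.9% of the start peaks of other genes lay over 1 kb from that end, against 0 of the 14. The downstream positions fall where start peaks of other genes are most frequent, since 16.6% of those lay 100 to 200 bp downstream. This split was seen in the data first and was not tested.

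**Figure D3:**
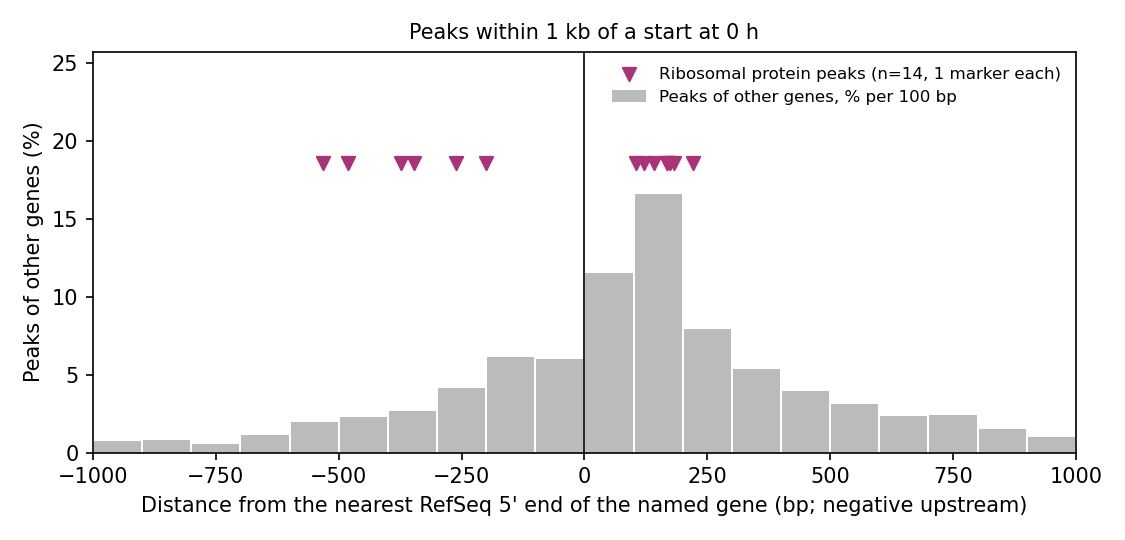
Position of 0 h peaks within 1 kb of a start, measured from the nearest RefSeq 5' end of the named gene (x axis, bp, negative upstream); triangles are the 14 ribosomal protein peaks and grey bars the percentage of the 1928 peaks of other genes in each 100 bp. The triangles fall from 532 to 201 bp upstream and from 104 to 220 bp downstream, and the bars are highest 100 to 200 bp downstream.

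Start sequences were available from RefSeq (GRCm38.p6) for 67 of the 87 genes, in 79 windows of 250 bases before and 50 bases from the start. The stretches below run from 120 bases before the start to 30 bases from it. They are shown for members whose peaks flank this stretch and whose start sequence shows what the family shares or lacks. Capitals mark matches to CCGGAAG (the core of ETS factor motifs) on either strand. On the given strand they also mark CTTTC beginning at most 10 bases from the start, a stretch that oligopyrimidine tracts can hold.
Rpl7a (chr2:26910687-26910836, plus strand): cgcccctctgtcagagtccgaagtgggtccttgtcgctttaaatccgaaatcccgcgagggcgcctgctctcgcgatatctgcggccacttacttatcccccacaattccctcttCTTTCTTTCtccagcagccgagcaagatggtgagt
Rpl12 (chr2:32961592-32961741, plus strand): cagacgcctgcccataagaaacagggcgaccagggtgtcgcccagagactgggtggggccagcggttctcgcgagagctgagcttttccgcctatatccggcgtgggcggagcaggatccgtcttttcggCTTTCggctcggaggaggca
Rpl26 (chr11:68901446-68901595, plus strand): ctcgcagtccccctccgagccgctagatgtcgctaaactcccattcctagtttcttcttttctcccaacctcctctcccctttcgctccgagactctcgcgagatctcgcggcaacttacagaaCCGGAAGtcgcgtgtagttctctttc
Rps25 (chr9:44407594-44407743, plus strand): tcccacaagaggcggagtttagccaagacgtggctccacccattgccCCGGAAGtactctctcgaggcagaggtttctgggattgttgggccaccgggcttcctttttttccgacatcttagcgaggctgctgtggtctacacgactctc
Rpl13 (chr8:123102230-123102379, plus strand): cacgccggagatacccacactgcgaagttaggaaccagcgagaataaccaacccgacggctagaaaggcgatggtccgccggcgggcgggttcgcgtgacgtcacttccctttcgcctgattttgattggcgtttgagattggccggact
Rpl5 (chr5:107900408-107900557, plus strand): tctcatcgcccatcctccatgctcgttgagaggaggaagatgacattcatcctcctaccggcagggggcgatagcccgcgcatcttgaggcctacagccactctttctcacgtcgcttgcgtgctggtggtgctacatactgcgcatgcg
In Rpl7a the pyrimidine tract runs across the annotated start as overlapping CTTTC matches. In Rpl12 the match begins 10 bases after the start and has purines on both sides. A CTTTC match therefore need not be an oligopyrimidine tract at the start. Rpl26 has the ETS core from 4 to 10 bases after the start, and Rps25, whose peak was found at 4 h, has it 73 to 67 bases before. Rpl5 and Rpl13 have no match in the whole window to any of the 4 motifs described here, with CTTTC counted at the start alone. In Rpl13 a CTTTC begins 1 base beyond the limit for the start. In Rpl5 a CTTTC lies before the start used, 107900528, and beyond that limit. It is close to the 5' end of the RefSeq gene span, 107900508. Over the family CCGGAAG, searched on both strands, was in 27 of 79 windows (34.2%, 23.9 to 45.7%), against 8.86% of the windows of all genes. ATGGCG, the core of the YY1 motif, also on both strands, was in 27.8% (18.3 to 39.1%) against 8.93%. CTTTC at the start was in 21.5% (13.1 to 32.2%) against 3.10%, and TATAAA, on both strands, in 8.86% (3.64 to 17.4%) against 13.6%. None of these motifs contains another. Among the 10 windows of members with a start peak at 0 h, CCGGAAG was in 2, ATGGCG in 1, CTTTC in 2 and TATAAA in 1, against 25, 21, 15 and 6 of the 69 windows of the other members. The 10 windows belong to 9 genes. The ATGGCG and TATAAA matches are both in the Rpl22 window of the start at 152324436. The Rpl22 peak lay 220 bp downstream of its other start, 152325726, whose window had no match.

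Host genes of snoRNAs were frequent among the members with a start peak. The reference places a snoRNA gene inside 8 of these 13 genes (61.5%, 31.6 to 86.1%), namely Rpl3, Rpl5, Rpl7a, Rpl12, Rpl13, Rpl30, Rps12 and Rpsa. Of the other 74 genes of the family 22 held one (29.7%, 19.7 to 41.5%). The intervals overlap, and the difference was not tested.

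The 5 peaks of 0 h away from starts belonged to 4 genes. Rps23, whose product sits at the decoding centre, had 2 points 3252 and 4668 bp downstream of the named start, both beyond the end of the gene. Rps9, a small-subunit protein gene, had 1 point 3552 bp downstream, also beyond its end. Rplp1 had a further point 15752 bp downstream, in intergenic sequence. It lay 17 bp outside the RefSeq long noncoding RNA gene Gm34974 and is thus nearer to that gene than to Rplp1. The point named for Rpl31 lay 10340 bp upstream of its start, inside an intron of Npas2, a transcription factor gene of the circadian clock. All 5 peaks therefore carry the name of a ribosomal protein gene without lying in it.

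After 4 h of LPS the same family had more peaks, and most of them lay away from starts. Over gene IDs below ENSMUSG00000027620, 19 peaks at 10 genes were found at 4 h and 6 peaks at 4 genes at 0 h. Their ratio of 3.17 (1.22 to 9.69) compares with 4.07 (3.88 to 4.26) for all peaks of these IDs. As a share of all peaks the family had 2.1 per 1000 at 4 h against 2.7 per 1000 at 0 h. The quotient of these shares was 0.779, and its interval of 0.299 to 2.38 includes 1. Rplp1 had the most peaks of any member, and leaving it out gave 15 against 3 peaks and a ratio of 5.0 (1.41 to 26.9). The quotient of the shares was then 1.23 (0.348 to 6.63), so its direction turned without this gene. By genes, 4 of the 10 were named at both times, against 30.5% of the 3435 genes of this range, 6 at 4 h and not at 0 h, against 61.4%, and 0 at 0 h and not at 4 h, against 8.12%. The members' counts are near these backgrounds.

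The share of start peaks was lower at 4 h than at 0 h among members and among all peaks, with overlapping intervals for the members. Within 1 kb of a start lay 7 of the 19 peaks at 4 h (36.8%, 16.3 to 61.6%) and 4 of the 6 at 0 h (66.7%, 22.3 to 95.7%). For all peaks of the range the shares were 19.9% at 4 h and 33.4% at 0 h. Start peaks alone gave 7 at 4 h against 4 at 0 h, a ratio of 1.75 (0.445 to 8.15), and the other peaks gave 12 against 2, a ratio of 6.0 (1.34 to 55.2). The corresponding ratios for all peaks were 2.42 and 4.89. Of the 7 members with a start peak at either time 1, Rpl13, had one at both, against 318 of 1758 such genes among all.

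**Figure D4:**
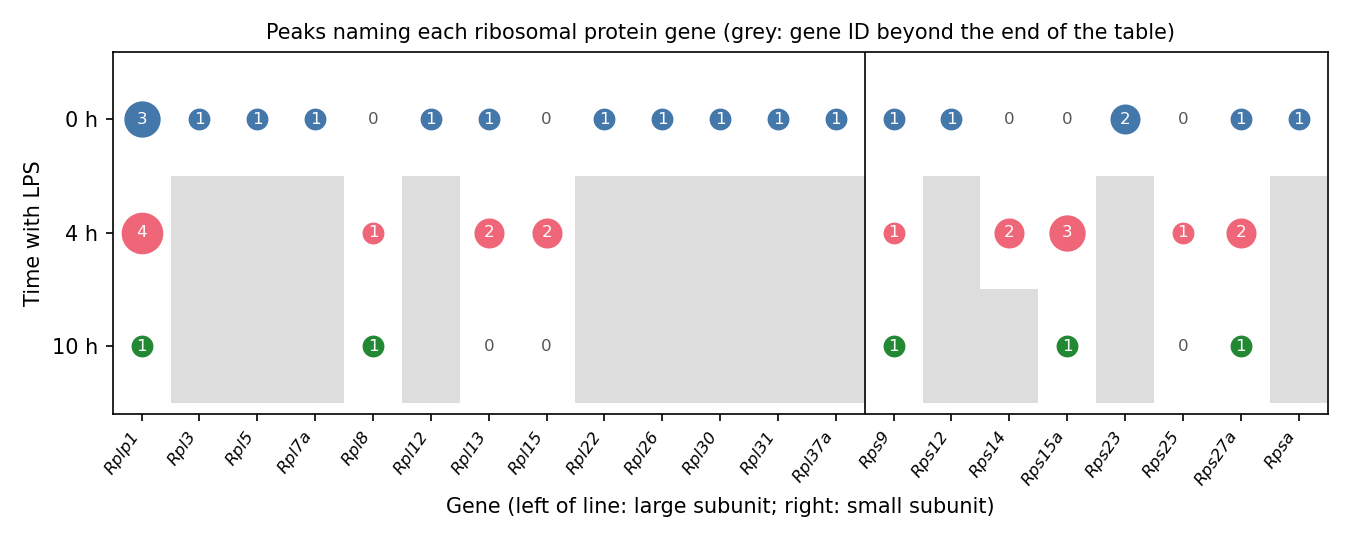
Number of peaks naming each of 21 ribosomal protein genes (x axis, large subunit left of the line) at 0, 4 and 10 h of LPS; circle area follows the number printed in it, and grey marks genes whose ID lies beyond the end of that table. Rplp1 has the most peaks, with 3, 4 and 1, and 12 genes can be read at 0 h alone.

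Start peaks at 4 h were found at 5 genes. Rpl13 had 2, which lay 212 and 20 bp upstream of 2 different named transcripts and, from the RefSeq start, 213 bp upstream and 280 bp downstream. The downstream one lay 98 bp from the Rpl13 point of 0 h. Rps25 (ENSMUSG00000009927, chromosome 9), whose product is needed for initiation at some internal ribosome entry sites, had its point 7 bp upstream of the named start. That point is 583 bp upstream of the RefSeq start and inside the adjacent gene Trappc4. Rpl8 (ENSMUSG00000003970, chromosome 15), whose product lies close to the peptidyl transferase centre, had its point 184 bp downstream.

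In Rps14, which in humans lies in the region lost in the 5q- syndrome, 2 points were listed 134 and 859 bp downstream of 2 named starts. The second is 2502 bp from the nearest RefSeq 5' end. Rps15a (ENSMUSG00000008683, chromosome 7), a small-subunit protein gene, had 3 points at 4 h. They lay 189 bp downstream of a start, 2204 bp upstream, and 9368 bp downstream in the 3' untranslated region. For the upstream one the neighbouring gene Arl6ip1 was 498 bp away. None of Rpl8, Rps14, Rps15a and Rps25 was named at 0 h.

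Of the 4 h peaks away from starts, 4 were named for Rplp1 and lay 4586, 12675, 23884 and 31021 bp downstream. The last 2 fall inside Gm34974. Rplp1 had 0 start peaks at 4 h, whereas at 0 h it had 2. Rps27a had 2 points 2140 and 2973 bp downstream of the named start, both beyond its end and inside the next gene, Mtif2, which encodes a mitochondrial translation initiation factor. A further 4 h peak inside Rps27a, 26 bp from its 5' end in RefSeq, is named for Clhc1, whose start lies 11 bp from it. Counted by position rather than by name, Rps27a thus had a start peak at 4 h as well. Rpl15, a large-subunit gene, had 2 points 3250 and 6051 bp downstream, past its end. Rps9 had 1 point 6570 bp downstream, which the authors' annotation puts in a 3' untranslated region and which lies 319 bp outside Pirb, the gene of an inhibitory immune receptor.

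Among the 9 members whose IDs all tables reach, 4 had a peak at 0 h, 9 at 4 h and 5 at 10 h. The backgrounds over the 2104 genes named in that range were 37.6% at 0 h, 87.2% at 4 h and 32.3% at 10 h. Rplp1, Rps9 and Rps27a were named at all 3 times, which is 3 of 9 against 13.1% of all genes of the range. In number of peaks the members had 6 at 0 h, 17 at 4 h and 5 at 10 h.

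The 10 h peaks were set against those of 0 h over these IDs. Members were named by 5 peaks at 10 h against 6 at 0 h (ratio 0.833, 0.201 to 3.28), and for all genes the ratio was 0.878 (0.811 to 0.951). The direction for the members depended on the counting, with 5 genes at 10 h against 4 at 0 h and, without Rplp1, 4 peaks against 3, a ratio of 1.33 (0.226 to 9.10). Of the 6 members named at either time 3 were named at both, against 27% of such genes, 2 at 10 h alone, against 31.7%, and 1 at 0 h alone, against 41.3%. Start peaks numbered 3 at 10 h and 4 at 0 h. Rpl8 had its 10 h point 5 bp downstream of the named start, Rps27a 39 bp and Rps9 333 bp downstream. From the nearest RefSeq 5' end these are 237, 220 and 1908 bp. The other 2 points of 10 h were 15696 bp downstream of Rplp1 and 9479 bp downstream in Rps15a.

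Single positions recurred between times. Of the 5 member peaks at 10 h, 3 lay within 500 bp of a 4 h peak (60%, 14.7 to 94.7%), against 20.3% of all 10 h peaks. The Rpl8 points were 179 bp apart and the Rps15a points in the 3' untranslated region 111 bp apart. The Rps27a point of 10 h was 194 bp from the 4 h peak named for Clhc1. The distal Rplp1 point of 10 h lay 56 bp from that of 0 h, so the place beside Gm34974 was listed at 0 h and 10 h. The nearest 4 h point to it was 3021 bp away. Of the 6 member peaks at 0 h, 1 lay within 500 bp of a 4 h peak (16.7%, 0.421 to 64.1%), against 18% of all 0 h peaks of the range. The Rps27a point of 0 h missed this limit at 558 bp.

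Other genes of the translation machinery were counted in the same way. In resting cells 19 of 71 genes named as translation initiation or elongation factors had a peak (26.8%), against 15.6% of all protein-coding genes, and 17 of their 24 peaks lay within 1 kb of a start (70.8%). For mitochondrial ribosomal proteins the figures were 9 of 78 genes (11.5%) and 7 of 11 peaks (63.6%). Ribosome biogenesis genes had 6 of 44 genes (13.6%) and 4 of 7 peaks (57.1%). Of 21 genes with oligopyrimidine starts or snoRNAs 2 were named (9.52%), 1 of them Rps27a, each by 1 start peak. That list shares elongation factor genes with the translation factors, which also share Eif6 with the biogenesis list. The shares of genes named in the last 3 lists were below the 15.6% of all protein-coding genes. The share of start peaks at ribosomal protein genes, 73.7%, thus stood beside 70.8% and 63.6% in the lists with more than 10 peaks, and its interval, 48.8 to 90.9%, includes both.

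The ratios of 4 h over 0 h in these lists stood beside 4.07 for all peaks and were not tested against it. Translation factors had 38 peaks at 4 h and 10 at 0 h (ratio 3.80), mitochondrial ribosomal proteins 14 and 4 (3.50), and ribosome biogenesis genes 26 and 5 (5.20). The list of oligopyrimidine starts and snoRNA hosts had 6 and 1 (ratio 6), of which 2 and 1 were those of Rps27a. Among translation factors Eif3j1, a subunit gene of initiation factor eIF3, had 4 peaks at 4 h and 2 at 0 h, which is uncertain because Eif3j2 is a near-identical copy. Eef1akmt1, which the name pattern caught and which encodes a methyltransferase of an elongation factor, had 2 at 4 h and 1 at 0 h. Eif3e, another subunit gene, and Eif5, the gene of a GTPase activator of initiation, had 1 at each time. Eif4g2, whose product drives cap-independent initiation, had 0, 3 and 1 peaks at 0, 4 and 10 h. Of ribosome biogenesis genes Utp20, needed for processing of the small-subunit RNA, had 4 peaks at 4 h and 1 at 0 h, and Nat10 and Wdr75 had 1 at each time. Myc, the transcription factor gene that drives ribosome production, had 0, 2 and 1 peaks at 0, 4 and 10 h, and Ubtf, which encodes a factor of RNA polymerase I, had 0, 1 and 1. In the mitochondrial list Mrpl45 had 0, 2 and 3, and Mrpl16 had 2 at 4 h and 2 at 0 h.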

How the data were processed

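Input samples (3) were not analysed here, and each of the 3 ChIP samples gave 1 peak table. Samples were grouped by their titles. The tools listed are MACS2 2.1.0, BWA 0.7.12 and CASAVA 1.8, on build GRCm38 (mm10), per the submitters' processing notes. Roles, thresholds and the use of the input are not given in the sources used here. Per the file headers, the authors deposited a position, a transcript span and a distance in bp for each peak. Every peak is 2 bp wide, and whether that is a summit is not given. The last row of the 4 h table breaks off and was left out.

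Members were found by the name rule, with Python 3.11.15 and pandas 2.3.3. The members and lists were chosen with earlier results of these data known. Of the 22 members 21 are named, and 1 is counted but not reported here. Of the other translation lists, up to 6 genes per list are given, those named at 2 or more times. Between-time comparisons used gene IDs up to the last one of the shorter table. The authors' annotation class defined a start peak. RefSeq starts and 98.0% to 98.7% of gene names were matched to the RefSeq annotation of GRCm38.p6. The starts given there are not complete, so the RefSeq distances use the gene's 5' end where no start is listed. Intervals were computed with SciPy 1.17.1. The name rule, counts of points within 500 bp, the sign of the distances and the ratio intervals were tested on simulated data. The motif counts in promoter windows were not. Alternatives were other sharing distances, other start definitions, counting genes in place of peaks, counting by position, cytosolic ribosomal proteins alone and, chosen after seeing the data, leaving out Rplp1. A stricter peak threshold was not run because the columns carry no q-value.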

Additional observations from a re-analysis of the deposited data

How the results depend on the processing

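Each of 20 alternatives stayed within the counting interval of its result, or within 1.5 times it for counts of genes. These intervals are wide, so this says little about stability. Counting points in the gene or within 5 kb of either side gave 24 genes with a peak at 0 h in place of 16, and start peaks alone gave 13. The count by position has no matching background here, since the 15.6% of all protein-coding genes counts genes named by a peak. The share of start peaks at 0 h was 73.7% by the annotation class, by distances of 1000 or 3000 bp and from RefSeq 5' ends, and 75.0% without Rplp1. The ratio of 4 h over 0 h was 3.17 by peaks, 2.5 by genes, 2.83 below ENSMUSG00000022416, 1.75 for start peaks and 5.0 without Rplp1. That of 10 h over 0 h was 0.833 by peaks, 0.750 for start peaks, 1.25 by genes and 1.33 without Rplp1. Of the 0 h peaks 16.7% were near a 4 h peak at 500 and 200 bp, 33.3% at 1000 bp and 25% among start peaks. Counting cytosolic ribosomal proteins alone changed no value, as no other gene passing the name rule had a row. No paired analysis was possible because there is 1 library per time. A read depth is not given, so how depth limits the lists is unknown.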

Other observations

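Peaks at ribosomal protein genes that name another gene were few. Within 1 kb of a member and outside the rows counted above, the 0 h table had 1 point inside Rps21 (chromosome 2, 180257813), named for an unnamed gene, 1 point 362 bp outside Rpl35a, named for Lmln, and 1 point 814 bp outside Rpl3l, named for Msrb1. The 4 h table had 1 point inside Rpl22, named for Chd5, besides that at Rps27a. The 10 h table had 1 point 394 bp outside Rpl31, named for Tbc1d8.

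Genes left out by the name rule had peaks of their own. Rps6ka2, which encodes a kinase of ribosomal protein S6 downstream of MAP kinases, had 18 peaks at 4 h and 3 at 0 h, of which 2 and 0 were start peaks. The related kinase gene Rps6ka1 had 3 peaks at 4 h and 1 at 0 h. Rps6ka5 had 1 peak at 0 h, 1 at 4 h and 1 at 10 h. At 0 h Rps6ka3, Rps6kb2, the paralog Rpl7l1 and the pseudogene Rpl10-ps3 had 1 each.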
